A study of Mus musculus with 8 samples.

Results

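The genes described here are 35 genes of glucose uptake, glycolysis and glycogen metabolism. They were chosen by symbol from a list of pathway members, and each was matched to its row of the count table through the gene name that the authors' deposited table pairs with it. A row was found for 30 of the 35, among 41096 rows of which 18558 had a name. Gapdh, Pgk1, Pgam1, Eno1 and Pfkfb2 had no row under their symbol and were not analysed here. Of the 30, 29 passed the filter on low counts and entered the test over all genes, and the brain aldolase gene Aldoc did not.

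The RNA came from the left ventricle of 8 mice that were 12 weeks old when their feeding began, 4 in each group, and feeding lasted 9 weeks. HFD-LNAME mice received a high-fat diet together with L-NAME, an inhibitor of the nitric oxide synthases, which the series design gives at 0.5%, a regimen that serves as a mouse model of heart failure in which ejection fraction is preserved. Normal Chow mice received standard food. The titles of all 8 libraries begin with the same letter N. The labels write the strain of all 8 as C57BL/5NJ and give no sex, batch or Nnt genotype for any library, although the series design speaks of both sexes and of mice with and without Nnt, the mitochondrial transhydrogenase. Whole ventricular tissue was sequenced, so fewer cells of a type and less RNA per cell cannot be told apart in any value below.

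Glycolysis splits glucose into pyruvate in the cytosol, and lactate dehydrogenase interconverts pyruvate and lactate. Glycogen is the stored form of glucose in muscle, built by glycogen synthase from UDP-glucose and taken apart by glycogen phosphorylase, which phosphorylase kinase switches on. The adult heart draws most of its energy from fatty acids and keeps glucose, lactate and a glycogen reserve as further fuels. Many steps are carried by several isoforms, 1 of which is typical of striated muscle, such as Pfkm, Pgam2, Eno3 and Pygm, while others are typical of liver, brain or most cells.

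Total counts ran from 31522074 to 41047658 in HFD-LNAME libraries and from 41852705 to 52053633 in Normal Chow libraries, so HFD-LNAME libraries were shallower (exact permutation test, two-sided, p = 0.0286, n = 4 each, the smallest p that the design allows). Cardiomyocyte markers were abundant in all libraries, with 11 of 12 listed genes measured. The library-to-library range of their summed level was 100654 to 125925 CPM (a count scaled by the library's TMM-adjusted total) in HFD-LNAME and 111313 to 130926 CPM in Normal Chow. Of the 11, 10 had a log2 fold change below 0, with a median of -0.10, 4 were lower at an unadjusted edgeR p under 0.05 and 2 had separated groups. Of 5 smooth muscle markers, 3 were higher at that p, with a median log2 fold change of 1.24 and a summed level of 339 to 548 CPM in HFD-LNAME and 277 to 425 CPM in Normal Chow. Atrial transcripts differed between libraries of the same group. Myl7, the atrial myosin light chain, stood at 10.2 CPM in HFD-LNAME 1 and at 216 to 686 CPM in HFD-LNAME 2, 3 and 4, against 0.714 and 1.02 CPM in Normal Chow 2 and 4 and 290 and 283 CPM in Normal Chow 1 and 3. The fat droplet gene Plin1 was at 12.0 and 8.73 CPM in HFD-LNAME 2 and 3, and at 0.444 to 2.57 CPM in the other 6 libraries. Of 9 adipocyte markers tested, 8 were higher in HFD-LNAME at an unadjusted edgeR p under 0.05. Their summed level, with 10 of 10 measured, was 542 to 865 CPM in HFD-LNAME and 501 to 625 CPM in Normal Chow. Most of it was Fabp4, which endothelial cells also express. Of 6 endothelial markers, 2 were higher and 0 lower at that p, with a median log2 fold change of 0.15. Their summed level was 751 to 909 CPM in HFD-LNAME and 657 to 830 CPM in Normal Chow. Of 10 skeletal muscle markers, 6 were tested, and 1 was lower and 0 were higher at an unadjusted edgeR p under 0.05. Acta1 ran from 72.1 to 1319 CPM in HFD-LNAME and from 302 to 826 CPM in Normal Chow. Ckm stood at 1690 to 2182 CPM in HFD-LNAME and at 2229 to 2600 CPM in Normal Chow. Tnnt3, Tnni2, Tnnc2, Mylpf and Actn3 stayed at or below 3.32 CPM, and the fast myosin genes Myh1, Myh2 and Myh4 at or below 0.191 CPM, in all 8.

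The mean levels of 3 glycolytic enzyme genes (Eno3, Ldhb and Pgam2) and 2 glycogen genes (Ugp2 and Pygl) were the ones that stood furthest below Normal Chow for their spread in HFD-LNAME, and none passed the edgeR test over all genes. The fitted level was 25.3% lower for Eno3, 20.4% for Ldhb, 14.3% for Pgam2 and 14% for Ugp2, and Pygl, at a low level, had a log2 fold change of -1.34. With edgeR's quasi-likelihood test and Benjamini-Hochberg adjustment, 0 of 29 members had an adjusted p under 0.05, as against 2 of 14875 genes tested (0.0134%), 1 higher and 1 lower (0.00672% each). Limma-voom called 0 members and 0 genes (0.0% of those tested), and DESeq2 called 1 of 30 members, Eno3, among 161 of 16719 genes (0.963%), of which the lower ones made up 0.437% of the genes. At an unadjusted p under 0.05, those 5 of the 29 were lower in HFD-LNAME and 0 were higher, or 17.2% lower, where 4.54% of all genes tested were lower and 5.02% higher (9.56% in either direction). The count of higher members was 1 in 7 of 16 alternatives, and in the same test 4 of 11 cardiomyocyte markers were lower, whose part in the members' values was not tested. In 2 members, Eno3 and Ugp2, every HFD-LNAME library lay below every Normal Chow library, or 6.90% of the members, where 3.24% of all genes were separated in that direction, 2.74% in the other and 5.98% in either. The log2 fold change was below 0 in 21 of 29 members and in 49.5% of all genes tested, with a median of -0.07 over the members and 0.0024 over all genes.

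**Figure D1:**
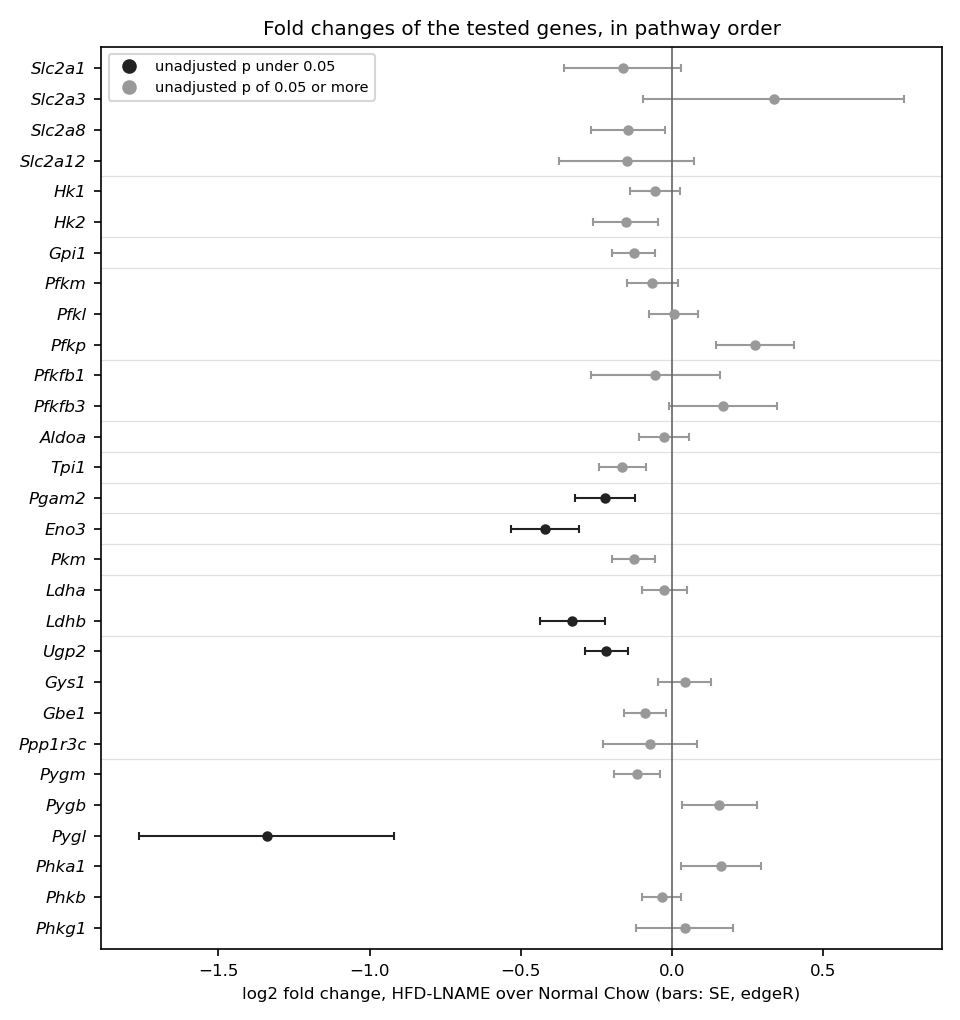
Log2 fold changes of the 29 tested genes (HFD-LNAME over Normal Chow, x axis) with their standard errors, in pathway order from glucose uptake at the top to glycogen breakdown at the bottom. Black points mark the 5 genes with an unadjusted edgeR p under 0.05, all of them left of 0, and 21 of the 29 points lie left of 0.

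The genes spanned a wide range of levels. Per kb of merged exons, the most abundant were Aldoa, Eno3 and Ldhb. Aldoa, the aldolase of muscle, stood at 1067 ± 91.1 CPM per kb in HFD-LNAME and 1087 ± 73.8 in Normal Chow. Eno3, the muscle enolase, stood at 984 ± 132 CPM per kb in HFD-LNAME and 1317 ± 160 in Normal Chow. Ldhb, the lactate dehydrogenase subunit that predominates in heart, stood at 920 ± 137 CPM per kb in HFD-LNAME and 1156 ± 89.0 in Normal Chow (SD, n = 4 each, for all 3 genes). Within HFD-LNAME these levels differed from their neighbour in the order by less than the SD of either gene. In Normal Chow Eno3 came first, and Ldhb and Aldoa differed by less than the SD of either. A group from 507 to 541 CPM per kb in HFD-LNAME and from 556 to 592 in Normal Chow held Pgam2, Pygm, Pfkm and Pkm, which could not be placed in order beyond their spread in HFD-LNAME. The 4 glucose transporters among the members were low, from 1.00 CPM per kb for Slc2a3 to 9.22 for Slc2a8 in HFD-LNAME, and from 0.794 to 10.2 in Normal Chow.

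**Figure D2:**
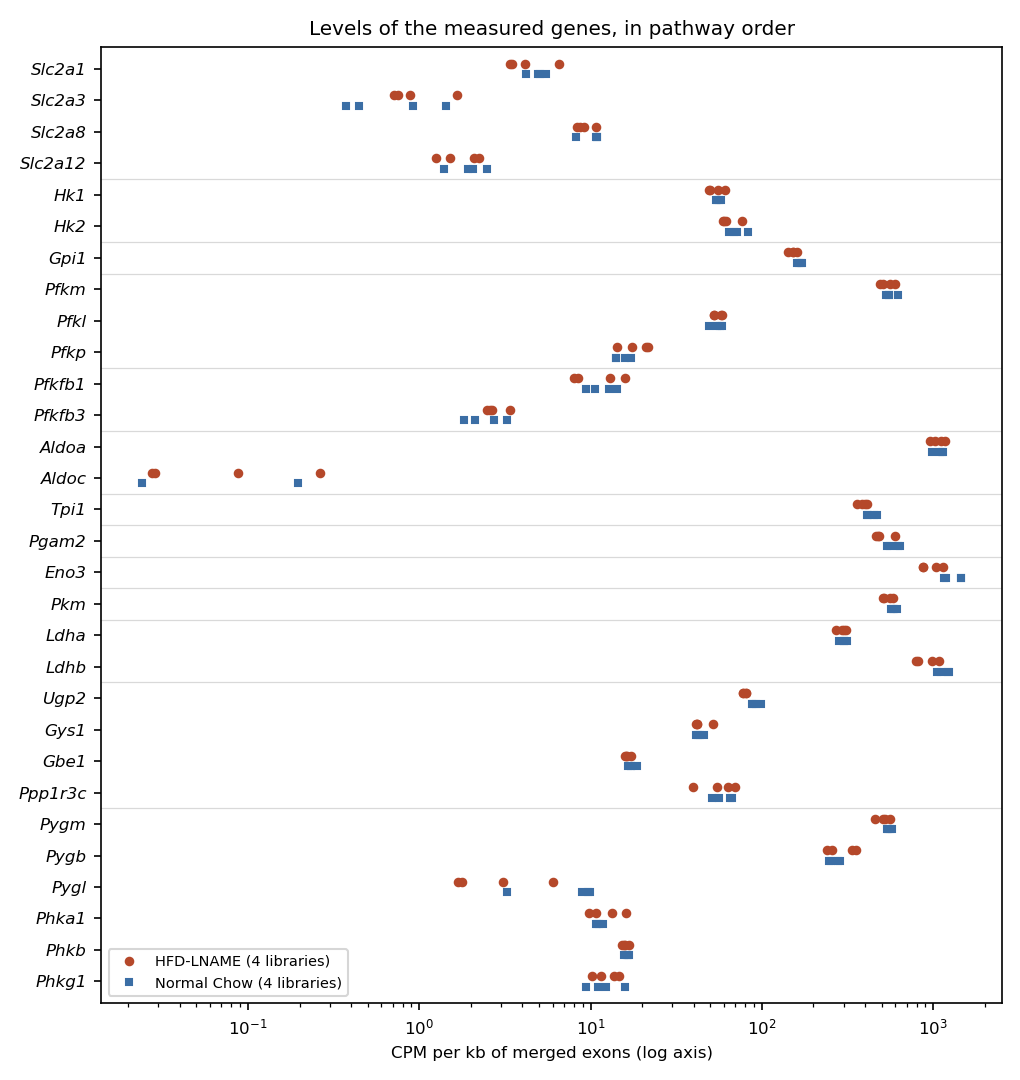
Level of each of the 30 measured genes in each library, as CPM per kb of merged exons on a log axis, in pathway order, with HFD-LNAME libraries as circles above Normal Chow libraries as squares. Values of 0 (Aldoc in 2 Normal Chow libraries) are not drawn, and Pfkm, Aldoa and Pygm lie to the right of the other measured isoforms of their step.

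At the entry of glucose, none of the 4 transporters differed between the groups by more than the test could resolve, with edgeR adjusted p from 0.754 to 0.878. Slc2a1, the basal transporter GLUT1, stood at 21.2, 13.5, 11.1 and 11.4 CPM in HFD-LNAME 1 to 4 and at 13.6, 17.8, 16.5 and 16.2 CPM in Normal Chow 1 to 4. The groups overlapped, and its highest value was in HFD-LNAME 1. The transporters Slc2a3, Slc2a8 and Slc2a12 had log2 fold changes of 0.34 ± 0.43, -0.15 ± 0.12 and -0.15 ± 0.22 (SE).

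Hexokinase traps glucose as glucose-6-phosphate. Hk2, the isoform of insulin-sensitive muscle, stood at 432, 348, 334 and 339 CPM in HFD-LNAME 1 to 4 and at 363, 466, 403 and 384 CPM in Normal Chow 1 to 4, a log2 fold change of -0.15 ± 0.11 (SE; adjusted p in edgeR = 0.690). HFD-LNAME 1 lay within the Normal Chow range and the other 3 libraries below it. The log2 fold change was -0.06 ± 0.08 for Hk1, the isoform of most cells, and -0.13 ± 0.07 for Gpi1, the isomerase that follows (edgeR adjusted p = 0.876 and 0.609).

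Phosphofructokinase commits sugar to glycolysis. Its muscle form Pfkm stood at 1793, 1474, 1520 and 1686 CPM in HFD-LNAME 1 to 4 and at 1664, 1659, 1591 and 1859 CPM in Normal Chow 1 to 4, with overlapping groups and a log2 fold change of -0.07 ± 0.08 (SE; adjusted p in edgeR = 0.85). The liver form Pfkl had one of 0.0056 ± 0.08 and the platelet form Pfkp one of 0.27 ± 0.13 (edgeR adjusted p = 0.992 and 0.539). Pfkp was highest in HFD-LNAME 2 and 3, at 90.6 and 92.8 CPM, while HFD-LNAME 1 and 4 stood at 74.8 and 61.0 CPM and the Normal Chow libraries at 60.8 to 73.7 CPM. HFD-LNAME 2 and 3 were also the libraries highest in Plin1 and low in cardiomyocyte markers, and the part of these in the Pfkp values was not tested. The bifunctional enzymes that make and remove fructose-2,6-bisphosphate, the activator of phosphofructokinase, had log2 fold changes of -0.06 ± 0.21 for Pfkfb1 and 0.17 ± 0.18 for Pfkfb3.

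The aldolase gene Aldoa had a log2 fold change of -0.03 ± 0.08 (SE; adjusted p in edgeR = 0.952). Aldoc, the brain form, had 3 to 26 counts in the HFD-LNAME libraries and 31, 0, 3 and 0 counts in Normal Chow 1 to 4. A count of 0 allows up to 0.0579 CPM in Normal Chow 2 and 0.0635 CPM in Normal Chow 4, at 3 counts per library and for counting error only. Tpi1, which converts the triose phosphates into each other, averaged 688 ± 42.1 CPM in HFD-LNAME and 771 ± 49.4 CPM in Normal Chow (SD, n = 4 each; log2 fold change -0.16 ± 0.08 SE, adjusted p in edgeR = 0.543). Processed copies of several glycolytic genes lie elsewhere in the mouse genome, and how the authors' counting treated reads shared with them is not given in the sources used here.

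Below the triose phosphates lie the 3 enzyme genes with an unadjusted p under 0.05. Pgam2, the muscle phosphoglycerate mutase, stood at 388, 408, 402 and 505 CPM in HFD-LNAME 1 to 4 and at 455, 535, 525 and 472 CPM in Normal Chow 1 to 4. HFD-LNAME 1, 2 and 3 lay below all Normal Chow libraries and HFD-LNAME 4 within their range. For Pgam2 the fitted log2 fold change was -0.22 ± 0.10 (SE; adjusted p in edgeR = 0.509, unadjusted p = 0.0448). Relative to the summed counts of 11 cardiomyocyte markers in the same library, its log2 difference was -0.10 and the groups overlapped.

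Eno3 had the smallest p of the set. It stood at 1784, 1370, 1369 and 1639 CPM in HFD-LNAME 1 to 4 and at 2280, 1875, 1819 and 2278 CPM in Normal Chow 1 to 4. All HFD-LNAME libraries lay below all Normal Chow libraries, the closest being HFD-LNAME 1 and Normal Chow 3. The mean was 1540 ± 206 CPM in HFD-LNAME and 2063 ± 251 CPM in Normal Chow (SD, n = 4 each). The log2 fold change was -0.42 ± 0.11 (SE), a level 25.3% lower by the fit, with an edgeR adjusted p of 0.265 and an unadjusted p of 0.0029. DESeq2's Wald test gave an adjusted p of 0.0306, the one member that it called, and limma-voom 0.262. The authors' deposited table gives Eno3 a log2 fold change of -0.42 and an adjusted p of 0.0288, the only member under 0.05 there, where 156 of 14149 genes (1.1%) were. Without HFD-LNAME 2 and 3 the log2 fold change was -0.27 (edgeR adjusted p = 0.610), and over the 16 alternatives that give one the adjusted p ran from 0.0306 to 0.610.

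Ldhb stood at 1405, 1070, 1032 and 1290 CPM in HFD-LNAME 1 to 4 and at 1454, 1591, 1370 and 1615 CPM in Normal Chow 1 to 4. HFD-LNAME 1 lay inside the Normal Chow range and the other 3 below it. The mean was 1199 ± 178 CPM in HFD-LNAME and 1507 ± 116 CPM in Normal Chow (SD, n = 4 each), which the fit put at -0.33 ± 0.11 on the log2 scale (SE; adjusted p in edgeR = 0.363, unadjusted p = 0.0097). Ldha, the subunit that predominates in skeletal muscle, was at 575, 559, 512 and 587 CPM in HFD-LNAME 1 to 4 and at 572, 538, 595 and 569 CPM in Normal Chow 1 to 4, and its log2 fold change was -0.03 ± 0.07 (SE; adjusted p in edgeR = 0.949). Without HFD-LNAME 2 and 3 the log2 fold change of Ldhb was -0.16 (edgeR adjusted p = 0.716), and its direction was kept in each of the 17 alternatives.

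The upstream sequences of Eno3 and Ldhb are shown because these genes had the smallest p among the glycolytic enzymes. Each is the 250 bases before the annotated start, 5′ to 3′ on the gene's strand, from RefSeq on GRCm38.p6, at chr11:70656926-70657175 on the plus strand for Eno3 and chr6:142507958-142508207 on the minus strand for Ldhb. The patterns searched, on both strands, were the E-box CACGTG, the hypoxia response core ACGTG (which every CACGTG contains), the TATA box TATAAA and the MEF2 pattern, CTA and TAG with any 4 bases between them, MEF2 being a factor of muscle genes. Capitals mark matches, all of them to the MEF2 pattern.
Eno3: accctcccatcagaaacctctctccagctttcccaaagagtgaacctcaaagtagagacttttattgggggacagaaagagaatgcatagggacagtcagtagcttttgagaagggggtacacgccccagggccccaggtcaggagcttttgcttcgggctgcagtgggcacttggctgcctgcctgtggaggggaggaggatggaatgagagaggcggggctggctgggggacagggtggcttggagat
Ldhb: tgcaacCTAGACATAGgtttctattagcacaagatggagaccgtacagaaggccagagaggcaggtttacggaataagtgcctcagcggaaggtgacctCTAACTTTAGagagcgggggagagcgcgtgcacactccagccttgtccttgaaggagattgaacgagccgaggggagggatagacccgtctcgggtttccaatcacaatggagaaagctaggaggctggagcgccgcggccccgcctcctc
Ldhb held 2 matches to the MEF2 pattern, which occurred in 3.2% of 32851 promoter windows of this length. The pattern fixes only its outer bases and is looser than a MEF2 site. Its 4 inner bases were GACA and ACTT in Ldhb, each holding C or G, so neither match is read as a MEF2 site. Eno3 held none of the 4 patterns in its window. The bases that follow the annotated start were found in a GENCODE M21 transcript of Ldhb but in none of Eno3. The Eno3 window may therefore not lie at a start that GENCODE gives, and its lack of matches is limited to the RefSeq start. A match here is a string of letters and not a measured binding site.

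Pkm, which makes pyruvate and ATP in the last step of glycolysis, stood at 1455, 1319, 1340 and 1506 CPM in HFD-LNAME 1 to 4 and at 1541, 1482, 1517 and 1599 CPM in Normal Chow 1 to 4. HFD-LNAME 4 alone lay within the Normal Chow range. On the log2 scale the fold change of Pkm was -0.13 ± 0.07 (SE; adjusted p in edgeR = 0.613).

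**Figure D3:**
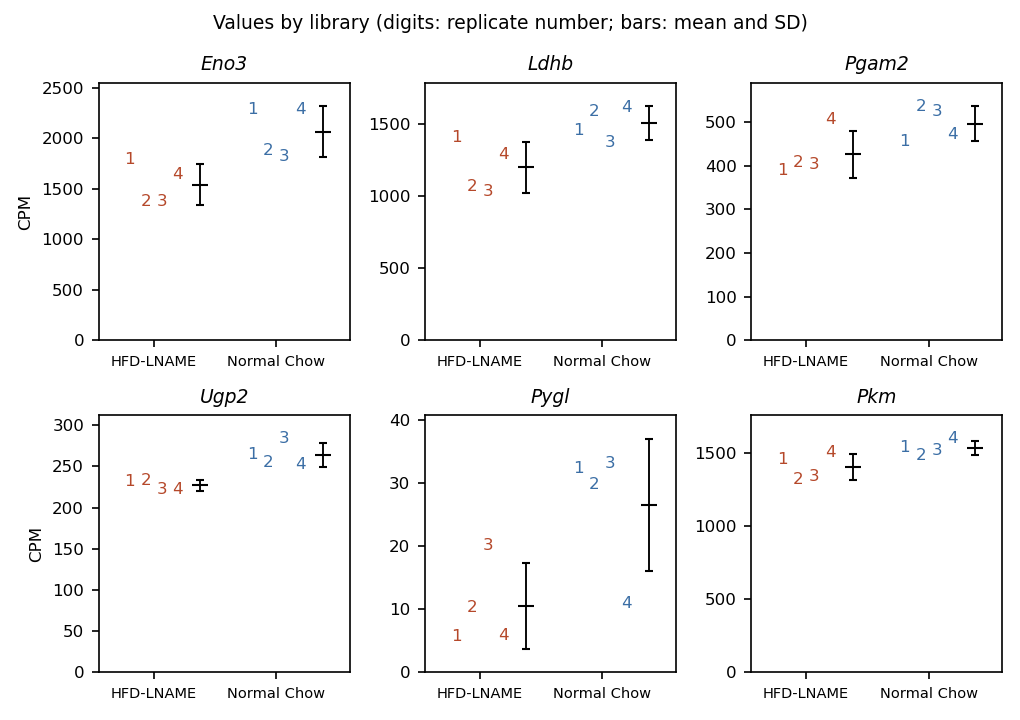
CPM in each library (digits give the replicate number) of the 5 genes with an unadjusted p under 0.05 and of Pkm, with the mean and SD of each group beside the digits and axes that start at 0. Eno3 and Ugp2 have HFD-LNAME libraries entirely below Normal Chow libraries, and in Eno3 and Ldhb the lowest values belong to HFD-LNAME 2 and 3.

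Among genes of glycogen synthesis, Ugp2 was the one with separated groups. Ugp2 makes UDP-glucose, the donor for glycogen synthase. It stood at 232, 233, 222 and 222 CPM in HFD-LNAME 1 to 4 and at 265, 254, 284 and 252 CPM in Normal Chow 1 to 4, with all HFD-LNAME libraries below all Normal Chow libraries. The fit gave Ugp2 a log2 fold change of -0.22 ± 0.07 (SE; adjusted p in edgeR = 0.364, unadjusted p = 0.0100). Relative to the cardiomyocyte markers of the same library the difference was -0.09 and the groups overlapped. Gys1, the muscle glycogen synthase, was at 191, 153, 155 and 155 CPM in HFD-LNAME 1 to 4 and at 169, 156, 159 and 151 CPM in Normal Chow 1 to 4 (log2 fold change 0.04 ± 0.09 SE; adjusted p in edgeR = 0.925). HFD-LNAME 1 was above all other libraries, and without it the log2 fold change was -0.04. Gbe1, the branching enzyme, and Ppp1r3c, which brings protein phosphatase to glycogen, had log2 fold changes of -0.09 ± 0.07 and -0.07 ± 0.15.

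Of the phosphorylases, which break glycogen down, the muscle form Pygm and the brain form Pygb were abundant. Pygm stood at 1601, 1317, 1468 and 1514 CPM in HFD-LNAME 1 to 4 and at 1561, 1620, 1554 and 1656 CPM in Normal Chow 1 to 4, with a log2 fold change of -0.12 ± 0.08 (SE; adjusted p in edgeR = 0.670). Pygb was at 1378, 1009, 935 and 1315 CPM in HFD-LNAME 1 to 4 and at 1088, 962, 987 and 1124 CPM in Normal Chow 1 to 4 (0.16 ± 0.12 SE; adjusted p in edgeR = 0.736). The highest Pygb values were those of HFD-LNAME 1 and 4, and the groups overlapped for both genes.

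Pygl, the liver phosphorylase, had the largest fold change of the set at a low level. It stood at 5.63, 10.3, 20.2 and 5.93 CPM in HFD-LNAME 1 to 4 and at 32.3, 29.8, 33.2 and 10.9 CPM in Normal Chow 1 to 4. Normal Chow 4 lay within the HFD-LNAME range, and the other 3 Normal Chow libraries above all HFD-LNAME libraries. The log2 fold change was -1.34 ± 0.42 (SE; adjusted p in edgeR = 0.344, unadjusted p = 0.0083) and ran from -1.86 without HFD-LNAME 3 to -1.13 without HFD-LNAME 1. Without HFD-LNAME 2 and 3 it was -2.20. Blood cells also express Pygl, and 5 of 5 macrophage markers were measured, with a summed level of 107 to 155 CPM in HFD-LNAME and 84.8 to 161 CPM in Normal Chow, lowest in Normal Chow 4. Their part in the Pygl values was not tested. The phosphorylase kinase subunits Phka1, Phkb and Phkg1 had log2 fold changes of 0.16 ± 0.13, -0.03 ± 0.07 and 0.04 ± 0.16, and none passed.

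By isoform, 3 of the 10 tested genes that are the heart or muscle form of their step had an unadjusted p under 0.05 (Pgam2, Eno3 and Ldhb), with a median log2 fold change of -0.09. Of the 12 tested other isoforms and transporters, 1 did (Pygl), with a median of -0.04, and of the 7 genes with no alternative form in the list, 1 did (Ugp2), with a median of -0.13. All 5 were lower in HFD-LNAME, as were 4.54% of all genes and 4 of 11 cardiomyocyte markers at that p. In classes of 12 or 7 genes, 1 is the smallest count above 0, and whether the classes differ was not tested. To compare isoforms within a library, where no scaling between libraries enters, log2 ratios of counts were formed for 8 of 12 planned pairs, and the pairs with Pgam1, Eno1 or Pfkfb2 were not analysed here. No pair passed a two-sided exact permutation test (n = 4 each) adjusted over the 8 pairs. The Ldhb to Ldha ratio was 2.44, 1.91, 2.02 and 2.20 in HFD-LNAME 1 to 4 and 2.54, 2.96, 2.30 and 2.84 in Normal Chow 1 to 4. Its log2 value differed by -0.31 (exact permutation p = 0.0571, adjusted p = 0.229, n = 4 each), with HFD-LNAME 1 alone inside the Normal Chow range. The Pygm to Pygb ratio was 1.16, 1.31, 1.57 and 1.15 in HFD-LNAME 1 to 4 and 1.43, 1.68, 1.57 and 1.47 in Normal Chow 1 to 4, a log2 difference of -0.26 (exact permutation p = 0.0857, adjusted p = 0.229, n = 4 each). The log2 difference was 1.29 for Pygm to Pygl, with the same p and adjusted p as that pair, and -0.33 for Pfkm to Pfkp (exact permutation p = 0.257, adjusted p = 0.411, n = 4 each). It was -0.09 for Hk2 to Hk1, -0.07 for Pfkm to Pfkl and -0.11 for Slc2a4 to Slc2a1, each with an adjusted exact permutation p of 0.571. The Aldoa to Aldoc ratio rests on 0 to 31 counts of Aldoc and moved from -2.20 to -0.96 on the log2 scale when 5 counts in place of 0.5 were added to each gene.

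The HFD-LNAME libraries did not behave alike. Each library was compared with the mean of the Normal Chow libraries on the log2 scale, gene by gene, and the median over the 29 members was 0.0030 in HFD-LNAME 1, -0.12 in HFD-LNAME 2, -0.17 in HFD-LNAME 3 and -0.11 in HFD-LNAME 4. HFD-LNAME 3 was the lowest library of its group in 12 of the 29 genes, and HFD-LNAME 1 the highest in 17. The medians over the 11 cardiomyocyte markers were 0.11, -0.17, -0.23 and -0.07 in HFD-LNAME 1 to 4, and those over all 14875 genes lay between 0.00068 and 0.0112. The members were thus low in HFD-LNAME 2, 3 and 4, with 21, 21 and 22 of 29 below the Normal Chow mean. The cardiomyocyte markers were lowest in HFD-LNAME 2 and 3, which also held the highest Plin1 values. In HFD-LNAME 4, 7 of the 11 cardiomyocyte markers lay below the Normal Chow mean. Its Plin1 was at 2.57 CPM, where the Normal Chow libraries held 0.444 to 2.13 CPM. The summed atrial markers were at 196 CPM in HFD-LNAME 1 and at 4330, 1847 and 1142 CPM in HFD-LNAME 2, 3 and 4. In Normal Chow 1 to 4 they were at 2277, 176, 2276 and 345 CPM. With an atrial marker score in the model the log2 fold change of Eno3 was -0.39 (edgeR adjusted p = 0.218). In that fit Ldhb was at -0.27, Pgam2 at -0.22, Ugp2 at -0.23, Pygl at -1.60 and Hk2 at -0.09. The parts of fat tissue, of atrial tissue and of cardiomyocyte content in the members' values were not tested.

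Set against the summed counts of the cardiomyocyte markers in the same library, a scale chosen after the data were seen, 12 of the 29 members had a negative log2 difference and the median was 0.03. No share or median over all genes was formed on this scale, so these counts have no background beside them. The summed markers averaged 110845 ± 11571 CPM in HFD-LNAME and 120527 ± 8221 CPM in Normal Chow (SD, n = 4 each). A lower sum raises every gene on this scale. Eno3 remained lower in every HFD-LNAME library, at 142, 133, 136 and 144 counts per 10000 marker counts in HFD-LNAME 1 to 4 and at 205, 154, 154 and 174 in Normal Chow 1 to 4, a log2 difference of -0.30. Ldhb was at 112, 104, 103 and 113 per 10000 in HFD-LNAME 1 to 4 and at 131, 130, 116 and 123 in Normal Chow 1 to 4, a log2 difference of -0.21 with no overlap between the groups. Aldoa was the one member with separated groups in the other direction, at 247 ± 7.59 per 10000 in HFD-LNAME and 231 ± 7.39 in Normal Chow (SD, n = 4 each). Pkm stood at 127 ± 8.11 per 10000 in HFD-LNAME and 128 ± 7.88 in Normal Chow, and Pygm at 133 ± 8.69 in HFD-LNAME and 133 ± 5.64 in Normal Chow. On this scale Pfkm and Pygm had log2 differences of 0.06 and 0.0056, opposite in sign to those above. The sign also turned from negative to positive for Hk1, Pfkfb1, Aldoa, Ldha, Gbe1, Ppp1r3c and Phkb, at 0.03 (Pfkfb1) to 0.10 (Ldha).

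**Figure D4:**
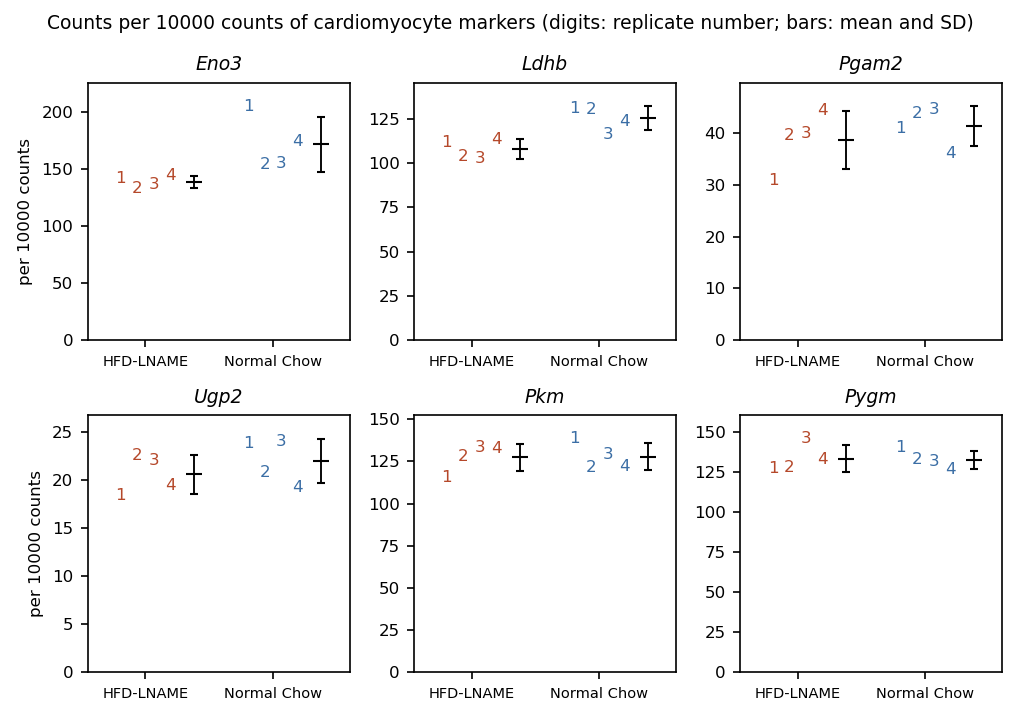
Counts per 10000 counts of 11 cardiomyocyte markers in the same library (digits give the replicate number), with the mean and SD of each group. Eno3 and Ldhb have HFD-LNAME libraries below Normal Chow libraries, and Pgam2, Ugp2, Pkm and Pygm overlap. In CPM the groups of Ldhb overlapped and those of Ugp2 did not.

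Other genes of glucose and glycogen handling were taken from a list of 41 genes, of which 36 were tested. With edgeR 0 passed the adjusted threshold, and at an unadjusted p under 0.05, 2 were higher and 2 lower, with a median log2 fold change of -0.03 over the list. Over all genes tested, 5.02% were higher and 4.54% lower at that p. The groups were separated in 3 higher and 2 lower genes of the 36, where 2.74% and 3.24% of all genes were. Fbp2, the muscle fructose bisphosphatase, which runs the phosphofructokinase step in reverse, stood at 48.3, 40.5, 38.9 and 46.2 CPM in HFD-LNAME 1 to 4 and at 27.5, 26.0, 35.03 and 26.4 CPM in Normal Chow 1 to 4. All HFD-LNAME libraries lay above all Normal Chow libraries, with a log2 fold change of 0.60 ± 0.12 (SE; adjusted p in edgeR = 0.181). DESeq2 called Fbp2 with an adjusted p of 0.00269, and edgeR without the low-count filter did so with 0.0360, while limma-voom gave 0.152.

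Ppp1r3g, a further subunit that targets phosphatase to glycogen, averaged 1.39 ± 0.184 CPM in HFD-LNAME and 0.476 ± 0.211 CPM in Normal Chow (SD, n = 4 each; log2 fold change 1.54 ± 0.46 SE, adjusted p in edgeR = 0.315). Phka2, the liver form of the phosphorylase kinase alpha subunit, averaged 26.9 ± 4.72 CPM in HFD-LNAME and 35.5 ± 4.63 CPM in Normal Chow (log2 fold change -0.40 ± 0.14 SE, adjusted p in edgeR = 0.370). The groups were separated in both genes. Hk3, a hexokinase of white blood cells, and Gyg, glycogenin, had log2 fold changes of -0.82 ± 0.40 and -0.14 ± 0.07 with overlapping groups. Slc2a4, the insulin-responsive transporter GLUT4, stood at 508, 349, 320 and 384 CPM in HFD-LNAME 1 to 4 and at 468, 497, 404 and 564 CPM in Normal Chow 1 to 4. Its log2 fold change was -0.31 ± 0.14 (SE; adjusted p in edgeR = 0.539), and without HFD-LNAME 1, the highest of its group, it was -0.46. Without HFD-LNAME 2 and 3 it was -0.11.

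Branches off glycolysis were read from a list of 23 genes, of which 20 were tested, with 0 past the adjusted threshold in edgeR, and 4 higher and 1 lower at an unadjusted p under 0.05. The shares over all genes were 5.02% higher and 4.54% lower. The groups were separated in 2 higher and 0 lower genes of the 20, where 2.74% and 3.24% of all genes were. Gfpt1, the entry enzyme of the hexosamine pathway, stood at 32.2, 33.7, 30.3 and 29.1 CPM in HFD-LNAME 1 to 4 and at 26.4, 23.6, 26.3 and 23.7 CPM in Normal Chow 1 to 4, with every HFD-LNAME library higher (log2 fold change 0.33 ± 0.09 SE; adjusted p in edgeR = 0.265). Gnpnat1, a later enzyme of that pathway, averaged 4.84 ± 0.550 CPM in HFD-LNAME and 2.94 ± 0.737 CPM in Normal Chow (SD, n = 4 each; log2 fold change 0.72 ± 0.23 SE, adjusted p in edgeR = 0.355), again with separated groups. Ogt, which attaches the sugar to proteins, averaged 157 ± 6.37 CPM in HFD-LNAME and 138 ± 13.3 CPM in Normal Chow (log2 fold change 0.19 ± 0.08 SE, adjusted p in edgeR = 0.513). Other hexosamine genes of the list had log2 fold changes of -0.10 ± 0.20 (Gfpt2), -0.13 ± 0.16 (Pgm3) and 0.07 ± 0.09 (Uap1). The remaining 2 at that p were Psat1 of serine synthesis, at 0.55 ± 0.24, and Taldo1 of the pentose phosphate pathway, at -0.21 ± 0.08. Psat1 was at 0.36 without HFD-LNAME 3 and 0.21 without HFD-LNAME 2 and 3. These genes are named after their values were seen.

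**Figure D5:**
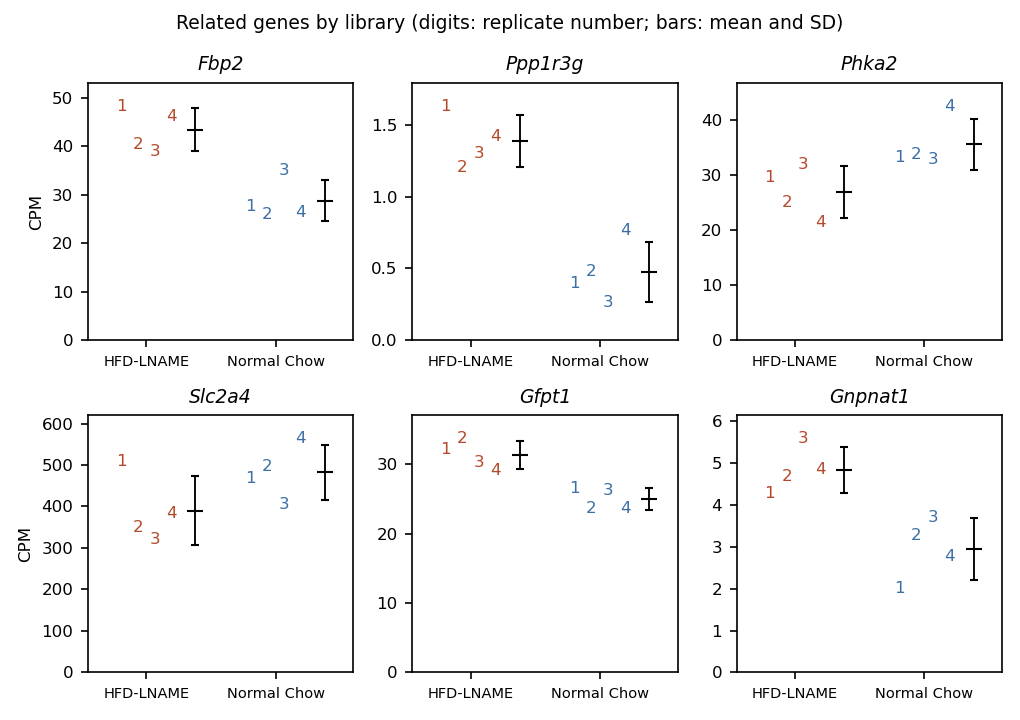
CPM in each library (digits give the replicate number) of 6 genes outside the set, 4 of glucose and glycogen handling and 2 of the hexosamine pathway, with the mean and SD of each group. HFD-LNAME libraries lie above Normal Chow libraries in Fbp2, Ppp1r3g, Gfpt1 and Gnpnat1 and below them in Phka2, the groups overlap in Slc2a4, and 0 of the 6 passed the edgeR threshold over all genes.

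Regulators known to act on glycolytic genes or enzymes formed a list of 25, of which 24 were tested and 18 had a log2 fold change above 0, with a median of 0.11. Of all 14875 genes tested, 7513 were above 0, with a median of 0.0024. None passed the adjusted threshold with edgeR. At an unadjusted p under 0.05, where 5.02% of all genes were higher, 4 regulators were higher, named here after their values were seen. They were the hypoxia factor Epas1 (0.28 ± 0.12), the muscle factor Mef2d (0.21 ± 0.08), the general factor Sp1 (0.21 ± 0.09) and the nuclear receptor Nr4a3 (1.61 ± 0.56), given as log2 fold changes with SE. The value of Nr4a3 rests on HFD-LNAME 1, at 148 CPM against 21.2 to 33.9 CPM in the other HFD-LNAME libraries, and was 0.47 without it. Without the same library Epas1 was at 0.17.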

How the data were processed

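Left ventricular RNA of 8 mice was sequenced, 4 HFD-LNAME and 4 Normal Chow libraries, grouped by the treatment label and matched to columns by the mouse number in each title. Replicate numbers follow accession order and pair nothing. Raw counts per gene are the values the authors deposited. The submitters' processing notes list STAR 2.6, DESeq2 1.22.1, bcl2fastq 1.8.4 and Trim Galore 0.4.0, and a human build, while the row names belong to the C57BL/6NJ mouse strain annotation. Which counter was used, with what strand setting, is not given in the sources used here. Overlapping genes on opposite strands may therefore share reads. The authors' deposited table also gives log2 fold changes, p-values and adjusted p-values by DESeq2, and its 8 columns of normalised values were not used.

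The test on counts was edgeR's quasi-likelihood test (edgeR 4.0.16, R 4.3.3; TMM scaling, filterByExpr at its minimum count of 10, Benjamini-Hochberg adjustment over 14875 genes, threshold 0.05). DESeq2 1.42.0, limma-voom (limma 3.58.1), other scalings and filters and leaving out each library were alternatives. CPM use TMM-scaled totals, and a standard error is the fold change (log2) over the root of the F statistic. Lengths are merged exons of protein-coding transcripts in GENCODE M21, an annotation of another strain. Library totals and isoform ratios (0.5 counts added to each gene) were compared over all 70 arrangements of the libraries (exact permutation, two-sided). P-values weigh the difference between the groups against the spread between these mice. That spread can include sex, batch and Nnt genotype, which are not labelled for any library. Counts of any 2 libraries of 1 group differed by more than sampling noise. The steps were tested on simulated data.

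The members, lists and tests were chosen with earlier results of these data known. Full values are given for members with an unadjusted p under 0.05, separated groups or a place at a committed step (Hk2, Pfkm, Pkm, Gys1, Pygm), for Slc2a4 and for 6 related genes with the smallest p, 1 of which is not reported here. Slc2a1, Pfkp, Ldha and Pygb were added after their values were seen. The settings without HFD-LNAME 2 and 3 and with an atrial marker score as a covariate, and the scale of cardiomyocyte markers, were chosen after seeing the data.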

Additional observations from a re-analysis of the deposited data

Results flagged for a closer look

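In 10 of 108 groups of 4 libraries checked, 1 library stood apart from the others by Dixon's ratio, its gap to the nearest library over the range of the group, above Dixon's critical value at the 95% level for 4 values. Chance flags about 1 in 20 groups. HFD-LNAME 1 was the high library for Hk2 (ratio 0.856), Gys1 (0.946) and Nr4a3 (0.90). Normal Chow 3 was the low library for Slc2a8 (0.928) and for the Pfkm to Pfkp ratio (0.966), and the high one for Fbp2 (0.833). Normal Chow 4 was the low library for Pygl (0.846) and the high one for the Pygm to Pygl ratio (0.872) and for Phka2 (0.894). Normal Chow 1 was the high library for Aldoc (0.877), which rests on few counts.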

How the results depend on the processing

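No paired analysis was possible because the labels give no replicate number shared between the groups. The count of genes called by edgeR over all genes, 2, was 161 with DESeq2, 0 with limma-voom, 34 without the low-count filter, 0 without HFD-LNAME 2 and 3, 0 with the atrial score, and 0 to 3 when single libraries were left out (0 without HFD-LNAME 2 or 4 or Normal Chow 1, 2 or 4, 1 without HFD-LNAME 1 and 3 without Normal Chow 3). The count of members called was 1 with DESeq2 and 0 in every other setting. The median log2 fold change of the members ran from -0.11 (without HFD-LNAME 1) to -0.06. Among the members, the alternatives were followed gene by gene for Hk2, Pfkm, Pgam2, Eno3, Pkm, Ldhb, Ugp2, Gys1, Pygm and Pygl. Of these, Pfkm turned direction without HFD-LNAME 2 and 3 (0.041), and Pfkm and Pygm did so relative to cardiomyocyte markers (0.057 and 0.0056). Gys1 turned without HFD-LNAME 1 (-0.039, the lowest of a range up to 0.074). Over all 29 members, 12 were below 0 relative to cardiomyocyte markers, as against 21 in the main edgeR fit. Log2 differences of the isoform ratios turned without HFD-LNAME 2 and 3 for Hk2 to Hk1 (0.023), Pfkm to Pfkl (0.11) and Pfkm to Pfkp (0.0019). Leaving out single libraries, they ran from -0.17 to -0.0061, -0.15 to -0.0075 and -0.47 to -0.22 for these 3 pairs, from -0.38 to -0.26 for Ldhb to Ldha, and from -0.35 to -0.20 for Pygm to Pygb. They ran from 1.02 to 1.70 for Pygm to Pygl, from -0.21 to -0.04 for Slc2a4 to Slc2a1 and from -3.46 to -1.41 for Aldoa to Aldoc. The cause was not tested. Of the genes named here, Eno3 and Fbp2 passed the adjusted threshold in some setting, Eno3 with DESeq2 and Fbp2 with DESeq2 and without the filter. The number of members lower at an unadjusted p under 0.05 ran from 3 (without HFD-LNAME 2 and 3) to 7 (without HFD-LNAME 1), and of those higher from 0 to 1, with 1 in 7 of 16 alternatives, among them DESeq2, no low-count filter and leaving out HFD-LNAME 1, HFD-LNAME 4 or Normal Chow 3. With 4 libraries a group, an exact permutation p cannot fall below 0.0286. Aldoc was too low to be compared at this depth.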

Other observations

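Promoter windows of the members were searched for the same 4 patterns. RefSeq gives 43 windows for 29 of the 30 measured genes, each the 250 bases before an annotated start on GRCm38.p6. The hypoxia response core ACGTG, 5 letters that are part of the site bound by hypoxia-inducible factors, occurred in 15 of the 43 windows (34.9%), from 12 genes that include Slc2a1, Hk2, Pfkfb3, Aldoa, Pkm and Ldha, as against 16.6% of all 32851 windows. The E-box CACGTG, which contains that core, occurred in 4 windows (9.3%, as against 6.02% of all), those of Ldha, Pfkfb3, Pfkm and Ppp1r3c. The MEF2 pattern, CTA and TAG with any 4 bases between them and so looser than a MEF2 site, occurred in 3 windows (6.98%, as against 3.2% of all). They were those of Ldhb, Phka1 and Slc2a12. The TATA box TATAAA occurred in 1 (2.33%, as against 12.4% of all), that of Pfkfb1. Of the 5 genes with an unadjusted p under 0.05, Pygl and Ugp2 held the hypoxia core, Ldhb the MEF2 pattern, and Eno3 and Pgam2 none of the 4. For Eno3 the bases after the RefSeq start were found in no GENCODE transcript of the gene. Windows of 1 gene can overlap, so they are not independent. The shares over all windows were not matched to the members for base composition, and whether the members' shares differ from them was not tested.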
